A study of Mus musculus with 11 samples.

Results

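Polycomb repressive complex 2 (PRC2) was followed through the genes of its 10 subunits: the catalytic subunits Ezh2 and Ezh1, the core subunits Eed and Suz12, the histone-binding subunits Rbbp4 and Rbbp7, and the accessory subunits Mtf2, Phf19, Jarid2 and Aebp2. Every probe set whose single platform gene symbol was one of these names was taken, which gave 35 of the 45101 probe sets present on the Affymetrix mouse 430 2.0 array. All 10 genes were represented, by 1 probe set for Ezh2 and by up to 6 for Suz12 and Mtf2. The samples were mouse induced pluripotent stem cells reprogrammed from ventricular myocytes (ViPSC, 3 arrays) or from tail tip fibroblasts (TiPSC, 3 arrays), mouse embryonic stem cells (mESC, 3 arrays), and the source cells themselves, ventricular myocytes (VM, labelled ventricular cardiomyocytes, 1 array) and tail tip fibroblasts (TTF, 1 array), both prepared from pups on postnatal day 1. The mice behind all 5 groups were of C57/Bl and BlackSwiss mixed stock. The pluripotent cells had been grown with LIF on irradiated embryonic fibroblast feeders, which were depleted by plating before RNA extraction. This culture concerned the pluripotent cells, and reprogramming only ViPSC and TiPSC, so both differ between groups compared here. No further treatment differed between the groups. Whether replicate arrays stand for separate cultures or separate lines is not stated in the labels, so the p-values measure only the spread between these arrays.

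PRC2 is a histone methyltransferase that marks a lysine of the histone H3 tail and keeps developmental genes silent. Ezh2, or its relative Ezh1, carries the catalytic domain but is inactive without Eed, which binds the methyl mark, and Suz12, the scaffold of the complex. Rbbp4 and Rbbp7 are histone-binding proteins that also belong to other chromatin complexes. Mtf2 and Phf19 are Polycomb-like proteins that help bring the complex to chromatin, while Jarid2 and Aebp2 define another form of the complex. In embryonic stem cells PRC2 holds lineage regulators in a silent state, and cells that lack it can self-renew but differentiate poorly.

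The values were log2 RMA expression values. They measure RNA of the subunit genes, and not protein, the assembled complex or its histone mark. They were compared within a probe set only, because probe sets bind with different strengths. The median of all probe sets over the 9 pluripotent arrays was 4.69, no detection calls were used, and RMA compresses differences near the bottom of the scale, so probe sets near that median or below are given with this limit. Of the 35 PRC2 probe sets, 24 averaged 7 or more across the pluripotent arrays and are called brighter here, as are other probe sets at that level.

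The labels were checked with marker lists. All 10 pluripotency markers were at least 1 log2 unit above the source array in every induced array, and all 10 cardiomyocyte markers had a median of 14.25 in VM and of 3.89 in TTF. The VM array also held endothelial transcripts (median of 7 markers 10.34, against 3.94 in TTF) and fibroblast transcripts (median of 15 markers 9.45, against 13.33 in TTF), so its values belong to a mixture of cells, and fewer cells of a type cannot be told apart from less RNA per cell. Of these 4 lists only Pecam1, an endothelial marker on chromosome 11, passed between replicated groups (1.33 ± 0.21 for ViPSC minus TiPSC, limma adjusted p = 0.0126). The fibroblast list was at a median of 6.13 in ViPSC and 6.65 in TiPSC. Between them 5 of its 15 genes had an unadjusted p under 0.05, all with a lower mean in ViPSC (8.92% of all probe sets). Between TiPSC and mESC (median 6.23) the list had 7 of 15. Of these, 6 had a higher mean in TiPSC (8.41% of all probe sets), among them Col1a1 (0.71) and Col3a1 (0.78). By array the list's median was 7.10, 6.64 and 6.21 in TiPSC, and its part in the PRC2 differences of TiPSC was not tested. Several pluripotent arrays stood apart by chromosome. The median of the 1011 brighter probe sets of chromosome 11 was 0.26 to 0.27 log2 units above the mean of the 9 arrays in all 3 ViPSC arrays, against −0.16 to −0.18 in TiPSC, and that of chromosome X was 0.57 in both mESC 2 and mESC 3 and below 0 in the other 7. The TiPSC 3 array was 0.47 above that mean on chromosome 8, where no PRC2 subunit gene lies. Within mESC the arrays correlated at 0.986 to 0.991, and within ViPSC at 0.996 to 0.997. Suz12 and Ezh1 lie on chromosome 11 and Rbbp7 on chromosome X, so these values are given again beside their results.

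**Figure D1:**
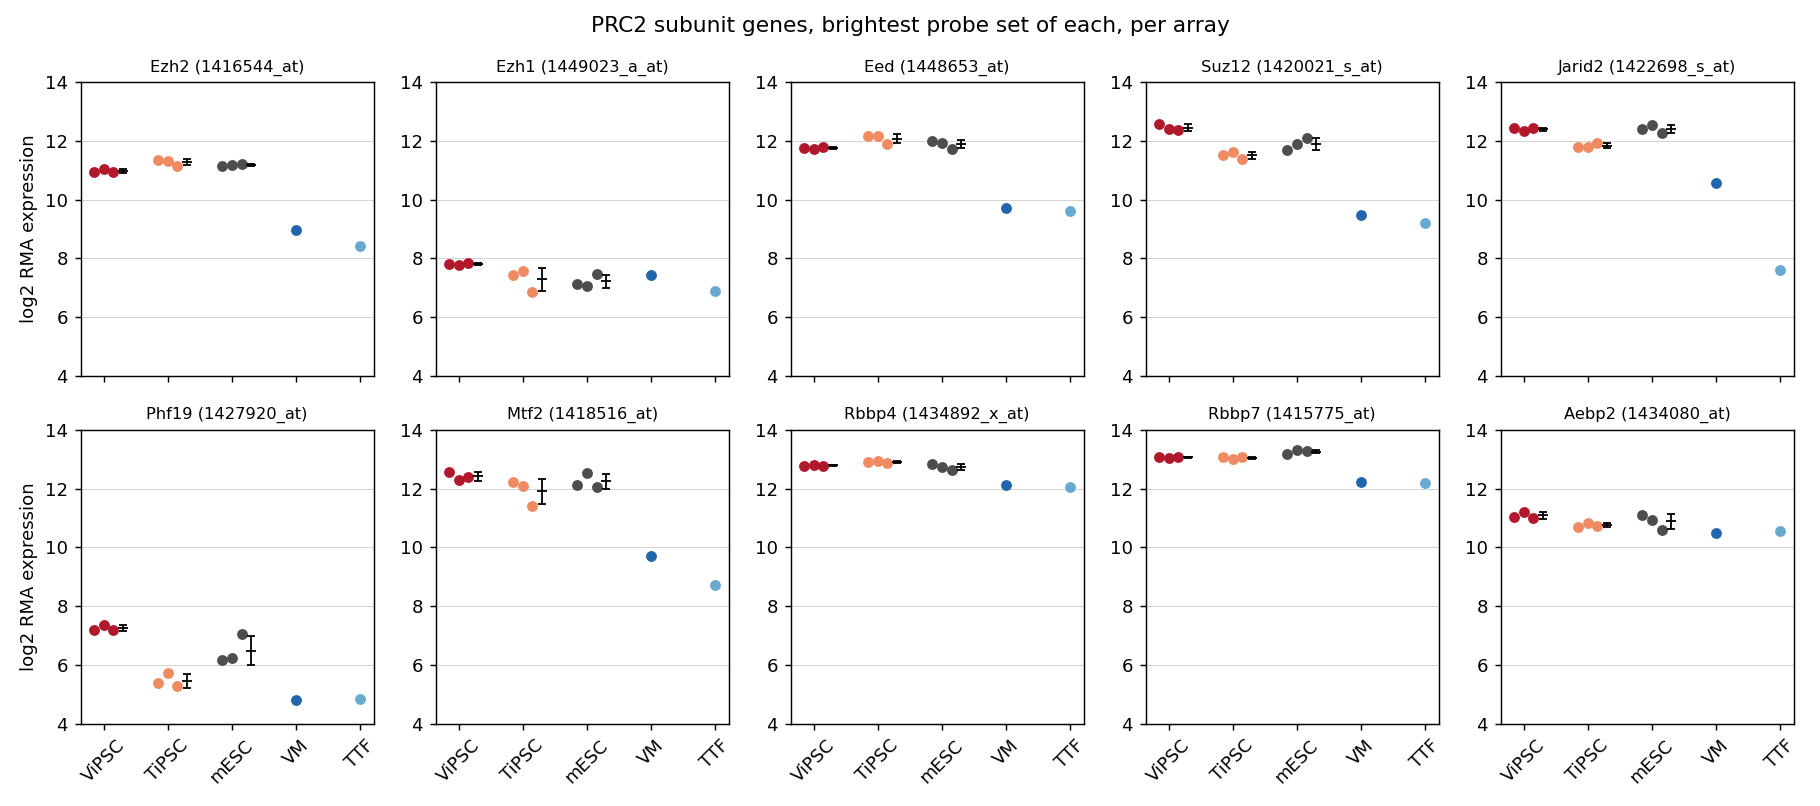
The log2 RMA level of the brightest probe set of each PRC2 subunit gene is plotted for every array, with the mean and SD of the 3 arrays of each replicated group beside its points; VM and TTF have 1 array each. Ezh2, Eed, Suz12, Jarid2 and Mtf2 stood more than 1 log2 unit higher in all 9 pluripotent arrays than in both source arrays, while Ezh1 and Aebp2 lay near the source arrays.

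Each kind of induced cell was first set against its source cell, which asks how RNA of the subunit genes differed after reprogramming. With 1 array per source there was no test, and a probe set was counted when all 3 induced arrays lay at least 1 log2 unit from the source array. Against VM, 19 of the 35 PRC2 probe sets were higher in ViPSC and 0 were lower, where 12.0% of all 45037 tested probe sets were higher and 10.8% lower. Against TTF, 15 of the 35 were higher in TiPSC and 0 were lower, where 9.57% of all probe sets were higher and 10.1% lower. At a limit of 2 log2 units, 13 of the 35 were higher in ViPSC than in VM (4.21% of all higher, 4.86% lower) and 14 in TiPSC than in TTF (2.99% higher, 4.45% lower), with 0 lower in either. The 15 probe sets of the smaller limit came from Ezh2, Eed, Suz12, Jarid2, Mtf2 and Rbbp4, and the 19 from these genes and Phf19 and Aebp2.

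The catalytic subunits differed from each other in this respect. Ezh2 was at 10.94, 11.06 and 10.94 in ViPSC and 8.96 in VM, and at 11.36, 11.30 and 11.16 in TiPSC and 8.40 in TTF. All pluripotent arrays, mESC included (11.14, 11.17 and 11.21), were therefore at least 1 log2 unit above both source arrays, and the mean ratio was 4.06-fold for ViPSC over VM and 7.32-fold for TiPSC over TTF. Ezh1, measured best by 1449023_a_at, was at 7.82, 7.78 and 7.83 in ViPSC and 7.45 in VM. It was at 7.44, 7.57 and 6.85 in TiPSC and 6.89 in TTF. The Ezh1 difference was 0.36 log2 units for ViPSC minus VM and 0.40 for TiPSC minus TTF, and the TTF array lay within the range of TiPSC. The other 3 Ezh1 probe sets had means of at most 5.41 in the replicated groups, and none was 1 log2 unit from the source arrays.

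The core partners of Ezh2 went with it. Eed (1448653_at) was at 11.77, 11.74 and 11.81 in ViPSC and 9.73 in VM, and at 12.17, 12.16 and 11.89 in TiPSC and 9.61 in TTF. The brightest Suz12 probe set, 1420021_s_at, was at 12.59, 12.40 and 12.39 in ViPSC and 9.49 in VM, and at 11.51, 11.63 and 11.38 in TiPSC and 9.21 in TTF. Both genes were thus far above their source arrays in every induced array, Eed by 2.04 and 2.46 log2 units and this Suz12 probe set by 2.97 and 2.30, for ViPSC minus VM and TiPSC minus TTF in this order. All 6 Suz12 probe sets were at least 1 log2 unit higher in ViPSC than in VM, and 5 were so in TiPSC against TTF. The second Eed probe set, 1453830_at, was dim in all groups, with means of 3.52 in ViPSC and 3.60 in TiPSC.

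The histone-binding subunits were present at high signal in every array and differed less. Rbbp7 (1415775_at) was at 13.06 to 13.10 in ViPSC and 12.22 in VM, and at 13.02 to 13.08 in TiPSC and 12.21 in TTF. Rbbp4 (1434892_x_at) was at 12.79 to 12.82 in ViPSC and 12.15 in VM, and at 12.89 to 12.94 in TiPSC and 12.07 in TTF. For both genes the induced arrays lay above the source array without overlap, by less than 1 log2 unit (0.86 and 0.84 for Rbbp7, 0.65 and 0.84 for Rbbp4). Probe sets of the _x_at kind can bind related transcripts, and a different Rbbp4 probe set, 1456260_at, gave larger differences (1.38 for ViPSC minus VM and 2.18 for TiPSC minus TTF).

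The accessory subunits split. Mtf2 (1449115_at) was at 10.64, 10.65 and 10.63 in ViPSC and 6.68 in VM, and at 10.67, 10.68 and 10.11 in TiPSC and 5.50 in TTF. These differences, 3.96 and 4.99 log2 units, were the largest of the 35 probe sets in each comparison. Jarid2 (1422698_s_at) was at 12.43, 12.35 and 12.43 in ViPSC and 10.57 in VM, and at 11.79, 11.79 and 11.93 in TiPSC and 7.61 in TTF. Its level was therefore much less apart from VM (1.84) than from TTF (4.23), since the VM array was 2.96 log2 units above the TTF array. Jarid2 is also known as a regulator of heart development. Phf19 (1427920_at) was at 7.19, 7.36 and 7.20 in ViPSC and 4.81 in VM, but at 5.37, 5.74 and 5.29 in TiPSC and 4.83 in TTF. Both source values of Phf19 lay near the 4.69 median of all probe sets, so the limit of low signal applies to them. Aebp2 depended on the probe set: 1434080_at differed by 0.60 and 0.18 and 1437743_at by 2.47 and 0.83, for ViPSC minus VM and TiPSC minus TTF in this order.

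Between the source cells themselves, 6 of the 35 probe sets were at least 1 log2 unit higher in VM than in TTF and 1 was lower, where 8.73% of all probe sets were higher and 10.1% lower. The 6 were all 3 of Jarid2, 2 of Mtf2 and 1 of Rbbp4, and the lower one was Aebp2 1437743_at (6.08 in VM and 7.27 in TTF). Ezh2 measured 8.96 in VM against 8.40 in TTF, and Suz12 1452364_at at 8.30 in VM and 8.12 in TTF, with no replicate to set these differences against. Genes of DNA replication and mitosis were also higher in the induced cells. In all 3 ViPSC arrays 17 of 19 were at least 1 log2 unit higher than in VM (12.0% of all probe sets). In all 3 TiPSC arrays 17 of 19 were so against TTF (9.57% of all). The median level of that list was 11.60 in ViPSC and 9.41 in VM, and 11.59 in TiPSC and 9.44 in TTF, and its part in the PRC2 differences was not tested. Between ViPSC and TiPSC 1 gene of that list passed, Top2a of chromosome 11, a topoisomerase (0.58 ± 0.12, limma adjusted p = 0.0316). At an unadjusted p under 0.05 there were 6 of 19, of which Top2a, Aurkb and Birc5 had higher and Pcna, Mcm2 and Mki67 lower means in ViPSC. Of the list 0 passed against mESC in the limma fit (5 for ViPSC and 2 for TiPSC at an unadjusted p under 0.05). Of all probe sets 3.91% passed between ViPSC and TiPSC, 1.22% between ViPSC and mESC and 0.213% between TiPSC and mESC.

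**Figure D2:**
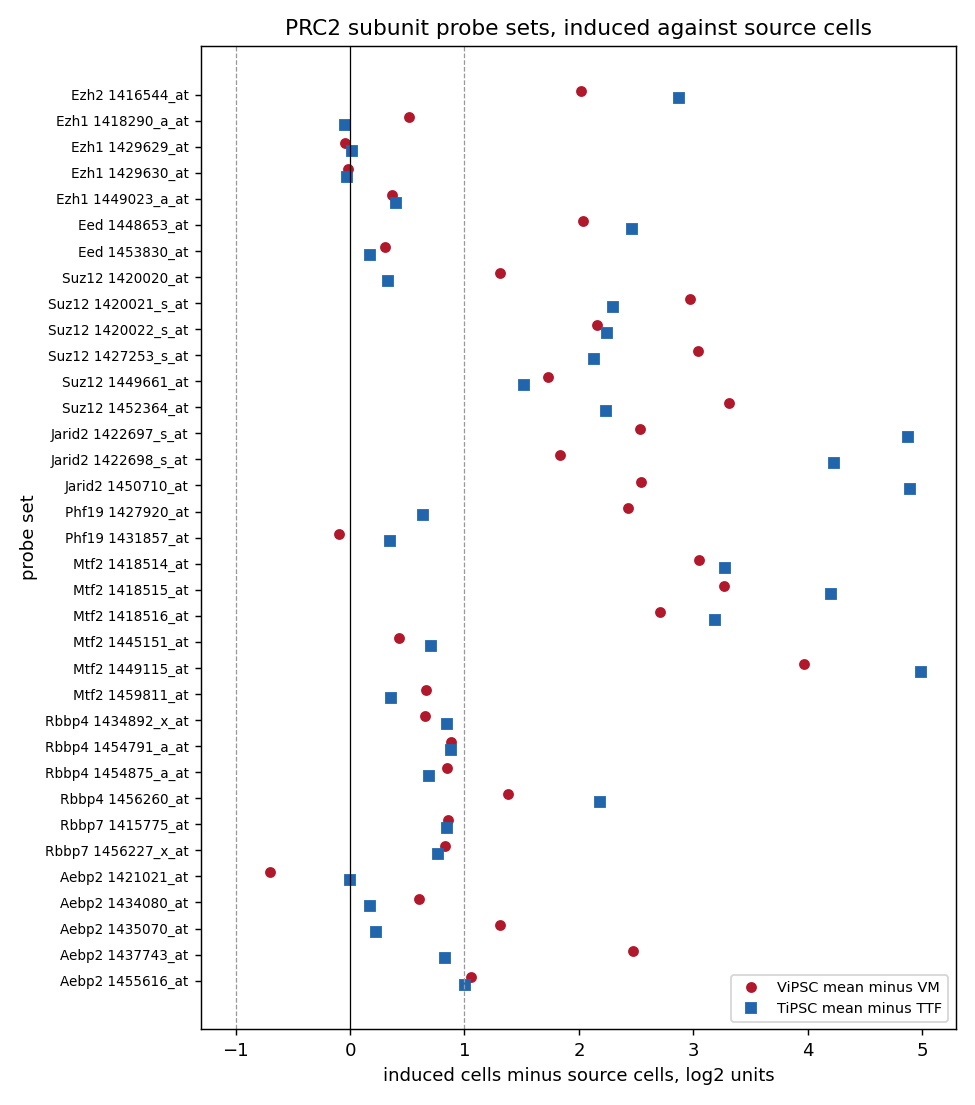
The log2 difference of the induced cells from their source array is plotted for each of the 35 probe sets, ViPSC mean minus VM as circles and TiPSC mean minus TTF as squares, with dashed lines at 1 log2 unit on either side of 0. The points run from −0.70 to 3.96 for ViPSC and from −0.05 to 4.99 for TiPSC, with Mtf2 and Jarid2 at the right and Ezh1 near 0.

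The promoters of the subunit genes are shown because Ezh2 and other genes of proliferating cells are known targets of the E2F factors. The RefSeq table held 14 promoter windows for the 10 genes, each of 300 bases, from 250 before to 50 after a transcript start (GRCm38.p6). The E2F motif was searched on both strands as TTT, then a pair of letters that are each G or C, then CGC. It occurred in 3 of the 14 windows, those of Ezh2 (chr6:47594981-47595280, minus strand), Suz12 (chr11:79992856-79993155, plus strand) and Phf19 (chr2:34913927-34914226, minus strand). Of all 32851 RefSeq windows, 2.26% held it, a share that is not matched for base composition. In the Ezh2 window the match began at base 4 after the start, in the Suz12 window at base −219 and in the Phf19 window, on the opposite strand, at base −208. A match is a description of these letters and does not show binding. The 3 windows are printed 5′ to 3′ along the gene's strand with the match in capitals.
Ezh2: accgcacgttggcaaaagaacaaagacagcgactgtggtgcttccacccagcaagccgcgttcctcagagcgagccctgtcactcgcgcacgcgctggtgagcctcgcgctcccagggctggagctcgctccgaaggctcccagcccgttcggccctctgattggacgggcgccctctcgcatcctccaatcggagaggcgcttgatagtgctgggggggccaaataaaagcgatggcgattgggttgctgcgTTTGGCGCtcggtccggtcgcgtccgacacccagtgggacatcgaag
Suz12: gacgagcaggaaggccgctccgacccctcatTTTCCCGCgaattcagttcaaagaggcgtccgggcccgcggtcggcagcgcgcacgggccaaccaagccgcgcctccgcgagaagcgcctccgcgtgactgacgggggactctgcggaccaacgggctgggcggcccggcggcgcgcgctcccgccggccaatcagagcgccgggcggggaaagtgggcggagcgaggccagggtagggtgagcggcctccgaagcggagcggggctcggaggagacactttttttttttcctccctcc
Phf19: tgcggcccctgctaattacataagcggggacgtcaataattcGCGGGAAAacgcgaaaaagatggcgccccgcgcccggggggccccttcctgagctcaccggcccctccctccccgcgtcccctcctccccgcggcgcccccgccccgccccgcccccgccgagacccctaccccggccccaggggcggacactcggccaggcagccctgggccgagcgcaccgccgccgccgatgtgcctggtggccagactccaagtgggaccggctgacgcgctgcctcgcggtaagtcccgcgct

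ViPSC against TiPSC asks whether RNA of the subunit genes differed between induced cells of the 2 origins. Suz12, Phf19, Jarid2 and Aebp2 each had at least 1 probe set that was higher in ViPSC at an adjusted p under 0.05, and no PRC2 probe set was lower. In the limma fit 7 of the 35 probe sets were higher, 4 of them of Suz12, where 2.40% of all probe sets were higher and 1.51% lower (3.91% in either direction). At an unadjusted p under 0.05 the fit gave 18 of the 35 higher and 3 lower, where 9.12% of all probe sets were higher and 8.92% lower. For 24 of the 35 the ViPSC and TiPSC ranges were apart, against 28.2% of all probe sets. The median difference was 0.42 log2 units over the 35 and −0.02 over all probe sets. Probe sets of 1 gene share their target, so these counts are not counts of independent genes.

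Suz12 was the most widely supported by its probe sets. Probe set 1452364_at was at 11.83, 11.52 and 11.49 in ViPSC and at 10.39, 10.47 and 10.23 in TiPSC. Every ViPSC array was above every TiPSC array, and the difference was 1.25 ± 0.13 log2 units (SE, n = 3 per group), a ratio of 2.38-fold (limma adjusted p = 0.00251). Suz12 1427253_s_at was higher by 1.20 ± 0.15 (limma adjusted p = 0.00562), 1420021_s_at by 0.95 ± 0.12 (limma adjusted p = 0.00562) and 1420020_at by 0.73 ± 0.13 (limma adjusted p = 0.0208). The first 3 of these kept their call without any 1 of the 9 arrays (highest limma adjusted p = 0.0348). The call of 1420020_at ended without any 1 of the ViPSC or TiPSC arrays (limma adjusted p from 0.0508 to 0.0938). The remaining probe sets, 1420022_s_at (0.67 ± 0.19, limma adjusted p = 0.0868) and 1449661_at (0.46 ± 0.24, limma adjusted p = 0.360), had positive differences that did not pass.

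The difference at Suz12 stood on a chromosome that differed as a whole. Of the 1011 brighter probe sets of chromosome 11, 287 were higher in ViPSC than in TiPSC and 1 was lower, with a median difference of 0.44. Suz12 1452364_at, 1427253_s_at and 1420021_s_at exceeded that median by 0.81, 0.75 and 0.51 log2 units. Of the 1011, which hold the Suz12 probe sets too, 25, 30 and 63 differed by as much or more. After each array was centred on the median of each chromosome, the differences were 0.82, 0.76 and 0.51, and all 3 still passed, whereas 1420020_at did not (0.29, limma adjusted p = 0.280). The 10 nearest brighter genes, 5 on either side, had differences of −0.03 to 0.88 with a median of 0.48, and 9 of them were above 0. Of these 10, Ccnq (0.60 ± 0.09) and Crlf3 (0.78 ± 0.13), the first brighter gene after Suz12, passed. Ezh1, on the same chromosome, was at 7.82, 7.78 and 7.83 in ViPSC and at 7.44, 7.57 and 6.85 in TiPSC for 1449023_a_at, a difference of 0.53 ± 0.18 that did not pass (limma adjusted p = 0.160) and that lay near the chromosome's median.

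**Figure D3:**
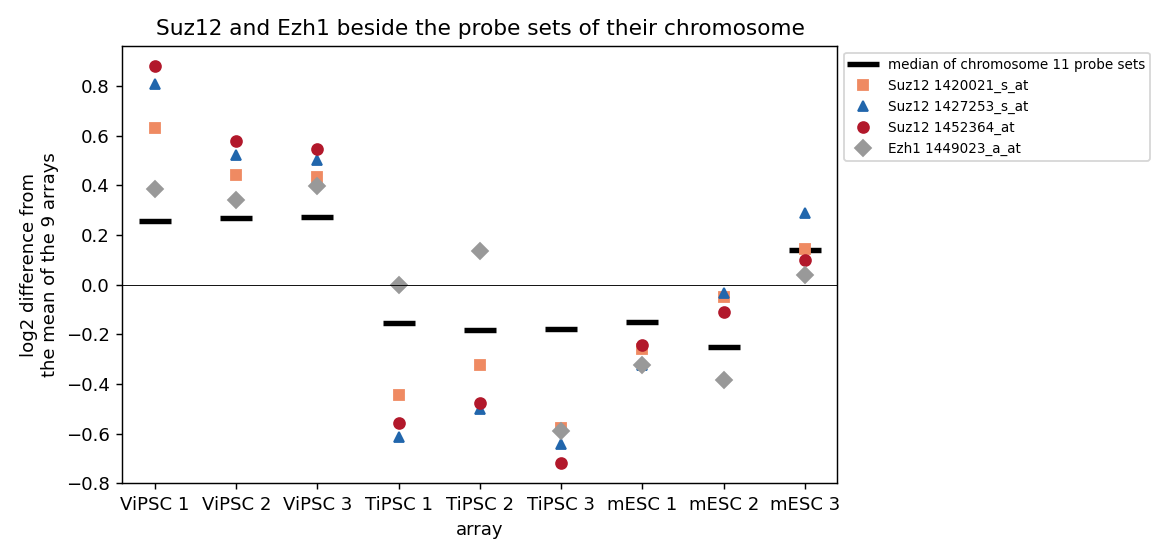
The log2 difference of each of the 9 pluripotent arrays from their mean is plotted for 3 Suz12 probe sets and 1 Ezh1 probe set, with a black bar for the median of the 1011 brighter probe sets of chromosome 11. The 3 Suz12 probe sets lay above the bar in all ViPSC arrays and below it in all TiPSC arrays, and in mESC 3 the bar was at 0.14, above the other mESC arrays.

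Phf19, on chromosome 2, had the largest difference of the 35 probe sets. Probe set 1427920_at was at 7.19, 7.36 and 7.20 in ViPSC and at 5.37, 5.74 and 5.29 in TiPSC. The groups were far apart, by 1.78 ± 0.22 log2 units or 3.44-fold (SE, n = 3 per group, limma adjusted p = 0.00561), and the call held without any 1 of the 9 arrays (highest limma adjusted p = 0.0348). Its other probe set, 1431857_at, had the opposite sign, at 5.44, 5.42 and 5.34 in ViPSC and 5.72, 5.78 and 5.71 in TiPSC, a difference of −0.34 ± 0.09 that did not pass (limma adjusted p = 0.0791). The higher Phf19 call therefore rests on 1 of the gene's 2 probe sets. Both averaged below 7 over the pluripotent arrays, and 1427920_at averaged 5.46 in TiPSC, so its ratio carries the limit of low signal. With only the 6 compared arrays (limma adjusted p = 0.0255), with array weights (0.0195) and without mESC 3 (0.0385) 1431857_at was lower in ViPSC, so those fits called the gene's probe sets in opposite directions.

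Jarid2, on chromosome 13, was higher in ViPSC by a smaller amount. Probe set 1422698_s_at was at 12.43, 12.35 and 12.43 in ViPSC and at 11.79, 11.79 and 11.93 in TiPSC. The ranges did not overlap, and the difference was 0.57 ± 0.09 (limma adjusted p = 0.0129), while the brighter probe sets of chromosome 13 had a median difference of −0.08. This call ended without ViPSC 1 (limma adjusted p = 0.0631), ViPSC 3 (0.0644) or TiPSC 1 (0.0628). The other 2 Jarid2 probe sets had like differences, 0.45 ± 0.11 for 1422697_s_at (limma adjusted p = 0.0584) and 0.42 ± 0.11 for 1450710_at (limma adjusted p = 0.0779), and did not pass.

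Aebp2 passed narrowly with 1 of 5 probe sets. Probe set 1437743_at was at 8.52, 8.69 and 8.45 in ViPSC and at 8.06, 8.01 and 8.22 in TiPSC, a difference of 0.45 ± 0.11 (limma adjusted p = 0.0499). Its call ended without any 1 of the 6 compared arrays or without mESC 2 (limma adjusted p from 0.0533 to 0.169). The other 3 Aebp2 probe sets of clear signal had differences of 0.34 to 0.44 that did not pass. Mtf2, the relative of Phf19, was at 12.59, 12.28 and 12.39 in ViPSC and at 12.23, 12.09 and 11.41 in TiPSC for 1418516_at. The ranges did not overlap, but TiPSC spread widely, with TiPSC 3 lowest, and the difference of 0.51 ± 0.21 did not pass (limma adjusted p = 0.237). None of the 6 Mtf2 probe sets passed.

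For Ezh2 and Eed the sign was the opposite, without a call in the fit reported. With array weights both were lower in ViPSC (Ezh2 −0.33, limma adjusted p = 0.0177, and Eed −0.35, limma adjusted p = 0.0239), where 11.1% of all probe sets were called. Ezh2 differed by −0.30 ± 0.08 (95% interval −0.48 to −0.11, limma adjusted p = 0.0847) and Eed 1448653_at by −0.30 ± 0.10 (95% interval −0.54 to −0.07, limma adjusted p = 0.156). For both, every ViPSC array lay below every TiPSC array. Rbbp4 and Rbbp7 did not pass with any probe set, and for Rbbp7 1415775_at the difference was 0.02 with a 95% interval of −0.14 to 0.18.

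**Figure D4:**
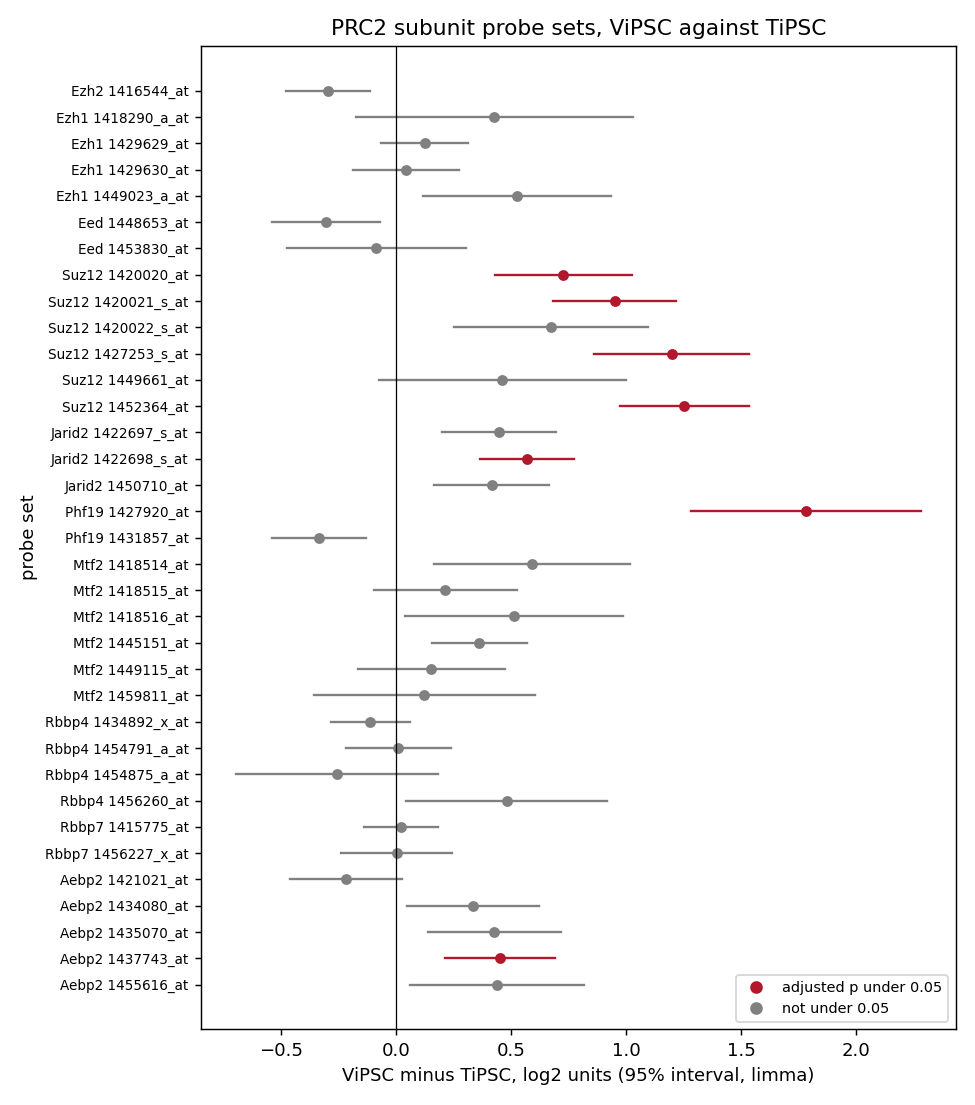
The log2 difference ViPSC minus TiPSC is plotted for each of the 35 PRC2 probe sets with its 95% interval from the limma fit, in red where the adjusted p was under 0.05. The 7 red points, 4 of Suz12 and 1 each of Jarid2, Phf19 and Aebp2, all lie right of 0, and the largest is Phf19 1427920_at at 1.78.

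In the fit over all probe sets 1761 were called between ViPSC and TiPSC, 1083 higher and 678 lower. With each chromosome centred the split was 868 higher and 1063 lower of 34715, and the PRC2 count was 8, all higher. With only the 6 compared arrays 14 of the 35 PRC2 probe sets were called (13 higher), where 9.64% of all probe sets were called. With 1 array left out 4 to 9 of the 35 were called. There were 4 without ViPSC 1, ViPSC 3 or TiPSC 1 (0.941%, 0.713% and 0.850% of all probe sets called), and 9 without mESC 1 (6.85%) or mESC 3 (6.14%).

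ViPSC against mESC asks whether the myocyte-derived cells differed from embryonic cells of the same mixed stock. Only Suz12 passed, and with 1 of its 6 probe sets: 1 of 35 PRC2 probe sets was higher and 0 lower in the limma fit, where 0.850% of all probe sets were higher and 0.373% lower (1.22% in either direction). At an unadjusted p under 0.05 there were 9 higher and 4 lower, where 8.03% of all probe sets were higher and 6.58% lower. Suz12 1452364_at was at 11.83, 11.52 and 11.49 in ViPSC and at 10.70, 10.84 and 11.05 in mESC. The ranges did not overlap, and the difference was 0.75 ± 0.13 (limma adjusted p = 0.0279), where the brighter probe sets of chromosome 11 had a median difference of 0.36. With each chromosome centred it did not pass (0.40, limma adjusted p = 0.132). Its call also ended without any 1 ViPSC array, without TiPSC 1 or without mESC 2 (limma adjusted p from 0.0612 to 0.110). Without mESC 1, 3 PRC2 probe sets were higher and 1, Rbbp7 1456227_x_at, was lower, where 8.36% of all probe sets were called. Without mESC 3, 5 were higher, where 2.02% of all were called. Over all probe sets 383 were higher and 168 lower, and with each chromosome centred 221 were higher and 184 lower.

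Other subunits did not pass against mESC. The largest difference was that of Rbbp4 1456260_at, at 8.45, 8.59 and 8.82 in ViPSC and at 8.09, 7.94 and 7.26 in mESC. The ranges were apart, and the difference of 0.85 ± 0.19 did not pass (limma adjusted p = 0.0750). It passed with array weights (limma adjusted p = 0.0208), without mESC 1 (0.0119) and without mESC 3 (0.0418), while the other 3 Rbbp4 probe sets differed by −0.02 to 0.12. Phf19 1427920_at was at 7.19, 7.36 and 7.20 in ViPSC and at 6.15, 6.24 and 7.07 in mESC. The mESC 3 array lay near ViPSC and the other mESC arrays near the middle between ViPSC and TiPSC, and the difference of 0.76 ± 0.22 did not pass (limma adjusted p = 0.146); without mESC 3 it did (1.05, limma adjusted p = 0.0142). Jarid2 1422698_s_at differed by −0.0037 with a 95% interval of −0.21 to 0.20. Ezh2 differed by −0.19 ± 0.08 (limma adjusted p = 0.315).

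TiPSC against mESC asks the same of the fibroblast-derived cells. In the limma fit 0 of the 35 PRC2 probe sets were called, where 0.213% of all probe sets were called. At an unadjusted p under 0.05 there were 0 higher and 13 lower, where 8.41% of all probe sets were higher and 6.33% lower. Jarid2 1422698_s_at, at 11.79, 11.79 and 11.93 in TiPSC and at 12.41, 12.54 and 12.27 in mESC, came nearest, with −0.57 ± 0.09 (limma adjusted p = 0.0518). Phf19 1427920_at differed by −1.02 ± 0.22 (limma adjusted p = 0.111), with every TiPSC array below every mESC array. Suz12 1452364_at was at 10.39, 10.47 and 10.23 in TiPSC, also below all mESC arrays, and differed by −0.50 ± 0.13 (limma adjusted p = 0.142). Without mESC 1 the fit called 8 of the 35 lower, which were 5 of Suz12 and 1 each of Jarid2, Phf19 and Rbbp7, where 9.61% of all probe sets were called. The comparisons of both induced lines use the same mESC arrays, so their values are not independent of each other.

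Rbbp7 was highest in the mESC arrays with the highest chromosome X values. Probe set 1456227_x_at was at 12.65 to 12.71 in ViPSC and 12.64 to 12.69 in TiPSC, against 12.72 in mESC 1, 13.14 in mESC 2 and 13.04 in mESC 3. Probe set 1415775_at was at most 13.10 in ViPSC and 13.08 in TiPSC, below all 3 mESC arrays (13.20 in mESC 1, 13.31 in mESC 2 and 13.28 in mESC 3). The mESC 2 and mESC 3 arrays, the 2 highest for both probe sets, were also those whose chromosome X median was 0.57 above the mean, against −0.13 in mESC 1. The differences ViPSC minus mESC (−0.29 ± 0.11) and TiPSC minus mESC (−0.29 ± 0.11) did not pass for 1456227_x_at (limma adjusted p = 0.252 and 0.261), and the median differences of chromosome X were −0.53 and −0.45. Without mESC 1 both passed, at −0.41 (limma adjusted p = 0.0155) for ViPSC and −0.42 (limma adjusted p = 0.0141) for TiPSC.

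By level in the replicated groups, Suz12 was highest in ViPSC, then mESC, then TiPSC, for 5 of its 6 probe sets. The order was the same for Phf19 1427920_at. In the fit reported no probe set of either gene passed between TiPSC and mESC. Between ViPSC and mESC only Suz12 1452364_at passed, and it did not with each chromosome centred (limma adjusted p = 0.132). For Jarid2 1422698_s_at ViPSC (12.40 ± 0.05) and mESC (12.41 ± 0.13) were within their spread of each other and above TiPSC (11.84 ± 0.08; SD, n = 3). Ezh2 was lowest in ViPSC (10.98 ± 0.07), highest in TiPSC (11.28 ± 0.10) and between them in mESC (11.17 ± 0.03), with no neighbours apart by a test. For Ezh1, Eed, Mtf2, Rbbp4, Rbbp7 and Aebp2 1434080_at no pair of these groups differed by a test, and VM and TTF lay below all 3 group means for each of these but Ezh1, where VM (7.45) lay between ViPSC and TiPSC.

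Related genes were counted with 1 probe set per gene. Of all probe sets 3.91% were called for ViPSC against TiPSC, 1.22% for ViPSC against mESC and 0.213% for TiPSC against mESC. At an unadjusted p under 0.05, 9.12%, 8.03% and 8.41% were higher and 8.92%, 6.58% and 6.33% lower, in this order. At these shares 0 calls in a short list does not set it apart from all probe sets. A list of 6 other genes linked to PRC2 held Phf1, Epop, Ezhip, Atrx, Lcorl and Lcor, and was not limited to subunits of the complex. Of these 6, 0 passed in any of the 3 replicated comparisons in the limma fit. At an unadjusted p under 0.05 there were 0, 2 and 3 for ViPSC against TiPSC, ViPSC against mESC and TiPSC against mESC. Epop, an accessory protein of pluripotent cells, was at 8.17 ± 0.06 in ViPSC, 7.98 ± 0.21 in TiPSC and 8.72 ± 0.42 in mESC (SD, n = 3). The source arrays were far lower, at 3.72 for VM and 3.03 for TTF. Phf1, the third Polycomb-like gene, was at 5.76 in ViPSC and 5.90 in TiPSC, below the 6.44 of VM and the 6.47 of TTF. Of 19 subunits of the other polycomb complex, PRC1, 0 passed in these comparisons (6, 3 and 7 at an unadjusted p under 0.05, in the same order). Against the source arrays, at the limit of 1 log2 unit, PRC1 genes went both ways. In ViPSC against VM 8 of 19 were higher and 4 lower (12.0% and 10.8% of all probe sets). In TiPSC against TTF 5 were higher and 4 lower (9.57% and 10.1% of all). Cbx7, the chromobox subunit of PRC1 in stem cells, was at 9.28 in ViPSC and 5.27 in VM, and at 9.31 in TiPSC and 4.65 in TTF. Bmi1 went the other way, at 6.22 in ViPSC and 8.98 in VM, and at 5.92 in TiPSC and 9.35 in TTF.

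The enzymes that remove or oppose the mark were counted in the same way. Of 5 such genes 0 passed in the limma fit in any of the 3 comparisons (0, 3 and 2 at an unadjusted p under 0.05). With so few genes and the shares over all probe sets given above, 0 calls does not set this list apart. Kdm6a, an X-linked demethylase, was at 8.74 ± 0.15 in ViPSC, 8.69 ± 0.13 in TiPSC and 9.53 ± 0.62 in mESC (SD, n = 3). Its differences from mESC were −0.79 for ViPSC and −0.84 for TiPSC, where the brighter probe sets of chromosome X had medians of −0.53 and −0.45. Uty of chromosome Y, below 7 in all groups, was at 5.55 ± 0.32 in ViPSC, 5.14 ± 0.77 in TiPSC and 4.11 ± 0.12 in mESC. Kdm6b was at 8.71 ± 0.12, 8.86 ± 0.05 and 8.91 ± 0.08 in the same order.

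Developmental regulators that PRC2 is known to occupy in mouse embryonic stem cells were counted next. The median level of 40 such genes was 4.45 in ViPSC, 4.51 in TiPSC and 4.53 in mESC, and 4.35 in VM and 4.71 in TTF. All of these lay near or below the 4.69 median of all probe sets. RMA compresses differences at such low signal, so the differences and counts of this list are given with that limit. Against the source arrays, at the limit of 1 log2 unit, they went both ways. In ViPSC against VM 8 of 40 were higher and 7 lower, where 12.0% of all probe sets were higher and 10.8% lower. In TiPSC against TTF 3 were higher and 9 lower, where 9.57% of all were higher and 10.1% lower. Over the list the median difference between ViPSC and TiPSC was 0.00, and over all probe sets −0.02. In that comparison 2 of 40 passed, both higher, a share near the 3.91% of all probe sets. These were Gata3, a factor of trophoblast and other lineages, at 6.99 ± 0.16 in ViPSC and 5.36 ± 0.24 in TiPSC (1.63 ± 0.18, limma adjusted p = 0.00323), and Neurog1, a neuronal factor, at 6.26 ± 0.12 and 4.79 ± 0.55 (1.47 ± 0.28, limma adjusted p = 0.0256). Against mESC, Neurog1 was higher (2.10 ± 0.28, limma adjusted p = 0.0152) and the cell cycle inhibitor gene Cdkn2a lower (−0.72 ± 0.14, limma adjusted p = 0.0485) in ViPSC, and Cdkn2a was lower in TiPSC (−1.03 ± 0.14, limma adjusted p = 0.0301). Of all probe sets 1.22% passed between ViPSC and mESC and 0.213% between TiPSC and mESC. Neurog1 was near the 4.69 median in TiPSC (4.79) and below it in mESC (4.16), so the limit of low signal holds for both of its differences. Cdkn2a was at 7.80 in ViPSC and 3.94 in VM, but at 7.49 in TiPSC and 11.71 in TTF.

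The genes whose levels over the 11 arrays were most like those of 3 subunits were found by the root mean square difference after each gene was centred on its own mean, among 18193 genes. For Ezh2, which had an SD of 1.01 over the arrays, they were Wdr76 (0.11 log2 units), Nasp (0.13) and Dctpp1 (0.13). For Ezh1, with an SD of 0.36, they were Commd1 (0.12), Mtres1 (0.14) and Gid4 (0.14), and for Phf19 1427920_at, with an SD of 0.98, they were Saa3 (0.19), Apoc2 (0.22) and Zbp1 (0.24). Saa3, for example, was at 8.77 in ViPSC, 6.87 in TiPSC, 7.90 in mESC, 5.94 in VM and 5.86 in TTF. This likeness is a description of 11 arrays and was not tested.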

How the data were processed

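Total RNA of 11 samples was labelled from the poly(A) end and hybridized to Affymetrix mouse 430 2.0 arrays. The deposited values are log2 expression values per probe set, made by the authors with RMA, per the submitters' processing notes; the software, its version and the probe annotation are not given in the sources used here. Symbols came from GEO's platform annotation, chromosomes and promoter sequences from RefSeq (GRCm38.p6), matched by Entrez identifier for 34741 of 34945 probe sets with 1 symbol; 932 had several symbols and 9160 none.

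After 64 control probe sets were left out, limma 3.58.1 in R 4.3.3 was fitted to 45037 probe sets of the 9 pluripotent arrays, with 1 mean per group, a shared spread and Benjamini-Hochberg adjustment over all probe sets. A call was an adjusted p under 0.05. Group errors are SDs of 3 arrays, errors of differences are SEs and intervals are 95%. A brighter probe set had a mean of at least 7 over these arrays. The fit was checked on simulated data. VM and TTF have 1 array each and were not tested. No array was left out. The precision is limited by the number of arrays. Same-numbered arrays of different groups did not deviate together (correlations −0.26 to 0.07), so the numbers do not pair them. Other genes were named from gene lists, with at most 4 per list and comparison among those past the threshold with the largest differences. Epop, Phf1, Ezhip, Atrx, Lcorl, Lcor, Cbx7, Bmi1, Kdm6a, Kdm6b, Uty, Col1a1, Col3a1, Aurkb, Birc5, Pcna, Mcm2, Mki67 and the neighbours of Suz12 were added after their values were seen. The members and lists were chosen with earlier results of these data known.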

Additional observations from a re-analysis of the deposited data

Results flagged for a closer look

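Groups of 3 arrays are too small for a test of single outlying arrays, and none was run. The dim Phf19 probe set 1431857_at moved in opposite ways from the source cells: all 3 ViPSC arrays were below VM (mean difference −0.095 log2 units) and all 3 TiPSC arrays were above TTF (0.35). With 1 array per source this difference was not tested.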

How the results depend on the processing

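The count of PRC2 probe sets called between ViPSC and TiPSC was 7 of 35 in the fit reported. It was 3 of 10 with 1 probe set per gene (Suz12, Jarid2 and Phf19), 14 with only the 6 compared arrays, 16 with array weights (13 higher and 3 lower, the lower ones of Ezh2, Eed and Phf19) and 4 to 9 without any 1 array. Over all probe sets the count of 1761 (3.91%) became 1024 of 18193 (5.63%), 4342 (9.64%) and 5005 (11.1%) under the first 3 of these settings. It was 977 (2.17%) with the replicate number as a block, and 321 (0.713%) to 3086 (6.85%) without 1 array. For ViPSC against mESC the PRC2 count of 1 became 0 with 1 probe set per gene, with the 6 compared arrays, with chromosomes centred and with the replicate block, 2 with a trended and robust prior, 6 with array weights, and 0 to 5 without 1 array. The count of 551 over all probe sets (1.22%) became 390 of 18193 (2.14%) with 1 probe set per gene and 135 (0.300%) with 6 arrays. It was 405 of 34715 (1.17%) with chromosomes centred, 493 (1.09%) with the trended and robust prior and 2579 (5.73%) with array weights. With the block it was 104 (0.231%), and without 1 array 22 (0.0488%) to 3765 (8.36%). For TiPSC against mESC the PRC2 count of 0 became 1 with 1 probe set per gene and with chromosomes centred. It was also 1 with the signal filter that kept 30 of the 35 and with the trended and robust prior. Each time this was Jarid2 1422698_s_at, lower in TiPSC. The PRC2 count was 3 with array weights, and 0 to 8 without 1 array. The count of 96 over all probe sets (0.213%) became 115 of 18193 (0.632%) with 1 probe set per gene and 114 of 34715 (0.328%) with chromosomes centred. It was 120 of 22519 (0.533%) with the signal filter and 92 (0.204%) with the trended and robust prior. With 6 arrays it was 5 (0.0111%), with array weights 1120 (2.49%) and with the block 13 (0.0289%). Without 1 array it was 11 (0.0244%) to 4326 (9.61%). With the replicate block 5 of the 35 were called between ViPSC and TiPSC. Some of these settings hold fewer probe sets or arrays, and the causes of the changes were not tested. No PRC2 probe set that was called in the fit reported or under an alternative changed sign there. A limit of 2 log2 units against the source arrays left 13 of 35 higher in ViPSC than in VM and 14 higher in TiPSC than in TTF, and 0 lower. Dim probe sets limit Phf19 most, since both of its probe sets averaged below 7 over the pluripotent arrays.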
